A study of Mus musculus with 39 samples.

Results

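The 10 genes described here code for transcription factors of the basic helix-loop-helix (bHLH) family and for their inhibitors, and were followed in granule cells of the mouse cerebellum, the small excitatory neurons that arise after birth from dividing progenitors. They were taken by name from the 24100 genes of the deposited table, with earlier results of these data known. The neuronal bHLH factors are Atoh1, Neurod1, Neurod2, Nhlh1 and Nhlh2, the E protein is Tcf4, and the inhibitors are Id1, Id2, Id3 and Id4. All 10 hold a value in every library.

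A bHLH factor binds DNA as a dimer, at a short motif called the E-box. Tissue-specific factors such as ATOH1 and NEUROD1 pair with a widely made E protein such as TCF4 (also called E2-2, and distinct from the Wnt effector TCF7L2). ID proteins have the helix-loop-helix but lack the basic region that touches DNA, so that an E protein held by an ID protein cannot form a DNA-binding pair. In the cerebellum Atoh1 specifies granule cell progenitors and keeps them dividing, Neurod1 acts in their differentiation and survival, and Nhlh1 and Nhlh2 are known from newly formed neurons. Id genes are known targets of bone morphogenetic protein (BMP) signals in many cell types, astrocytes and endothelial cells included.

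Polyadenylated RNA was sequenced in 39 libraries of 13 groups. In translating ribosome affinity purification (TRAP) an EGFP-tagged ribosomal protein, L10a, is captured by antibody, and the RNA on the captured ribosomes is sequenced. Mice carrying Tg(NeuroD1-Egfp-L10a), in which sequences of Neurod1 drive the tag, gave 5 libraries each at postnatal day 7 (P7), P12 and P21 from whole cerebellar lysate. Mice carrying Tg(Atoh1-Egfp-L10a) gave 4 libraries from isolated progenitors at P7 (Math1 is the older name of Atoh1). The strain of both lines was C57Bl/6J. An input library of total cerebellar RNA was made at each of the 3 ages, 1 per age, from a line that the labels do not name. The labels do not say which stretches of Atoh1 or Neurod1 the transgenes carry.

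Cultures began with granule cells of C57Bl/6J pups at P6 to P7 and were sampled at 0 days in vitro (DIV0), at DIV2 with the solvent DMSO and at DIV5 with DMSO, in 2 libraries each. A further 2 libraries came from DIV5 cultures with 100 nM UNC1999, an inhibitor of the H3K27 methyltransferases EZH2 and EZH1, and are set against the DIV5 cultures with DMSO. A separate experiment compared DIV5 cultures of P7 cells that carry Ezh1(cKO/cKO);Atoh1-Cre (4 libraries, here cKO) with cultures that carry Ezh1(wt/wt);Atoh1-Cre (5 libraries, here wt). All 9 of these libraries thus carry Cre under Atoh1 sequences, and their strain is not labelled. The labels do not say that libraries of a group came from separate animals or cultures, so p-values measure the spread between libraries only. Each library held between 12.1 and 38.5 M counts.

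Levels are CPM, a gene's counts scaled to a common library total and for library composition, and ± after a level is the SD over libraries. A log2 fold change is given ± its SE, and a gene is called when its Benjamini-Hochberg adjusted p from edgeR's quasi-likelihood test over all genes tested is under 0.05. In the Ezh1 experiment the libraries numbered 1 and 2 in both genotypes stood apart from those numbered 3 to 5, with Nhlh1 between 1.47 and 2.71 CPM in the first set and between 11.3 and 16.8 CPM in the second. The Math1 TRAP libraries also fell into pairs, 1 with 2 and 3 with 4, and results that differ between these pairs are given for each.

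The sequence before the start of 3 members is shown because these genes lead the results below: Nhlh1 and Nhlh2 fell with age and in culture, by unlike amounts, and Id3 rose in culture. The stretches come from RefSeq (GRCm38.p6) and are written 5′ to 3′ on the strand of the gene, with each E-box (CANNTG) in capitals.
Nhlh1, chr1:172057597-172057846, minus strand: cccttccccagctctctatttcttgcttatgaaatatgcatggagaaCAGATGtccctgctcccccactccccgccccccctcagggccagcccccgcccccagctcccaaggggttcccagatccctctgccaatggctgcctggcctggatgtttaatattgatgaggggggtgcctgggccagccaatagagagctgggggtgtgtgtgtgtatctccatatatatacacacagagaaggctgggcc
Nhlh2, chr3:102009895-102010110, plus strand: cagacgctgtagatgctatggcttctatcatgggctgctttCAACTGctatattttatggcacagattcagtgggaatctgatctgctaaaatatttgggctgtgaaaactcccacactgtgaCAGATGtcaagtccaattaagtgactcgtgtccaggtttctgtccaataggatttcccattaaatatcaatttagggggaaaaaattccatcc
Id3, chr4:136143572-136143821, plus strand: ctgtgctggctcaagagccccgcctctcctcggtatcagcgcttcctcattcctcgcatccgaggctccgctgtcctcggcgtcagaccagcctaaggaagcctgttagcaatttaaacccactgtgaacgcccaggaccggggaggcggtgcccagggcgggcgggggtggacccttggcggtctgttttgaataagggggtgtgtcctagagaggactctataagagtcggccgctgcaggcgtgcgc
The stretch of Nhlh1 held 1 E-box and that of Nhlh2 held 2, while that of Id3 held 0. The form CAGATG, 1 of those that CANNTG covers, stood once in each of the Nhlh1 and Nhlh2 stretches. For scale, in windows of 250 bases CANNTG was present in 66% of 27025 promoters, CAGATG (or CATCTG, its reverse complement) in 14.5% and CAGCTG in 12.8%. These windows were not cut at the start of the gene, while the Nhlh2 stretch shown was, and holds 216 bases. The promoter table held 8 of the 10 members. In their windows CANNTG occurred 3 times in Neurod2, once in Neurod1, once in Id2 and not at all in Atoh1 and Id4, and CAGCTG occurred only in Id2. CAGATG or CATCTG was present in Neurod2 as well as in Nhlh1 and Nhlh2, and in no other of the 8. Absence of these letters says only that they are not in the window. Nhlh1 lies on chromosome 1 from 172052292 to 172057596, Nhlh2 on chromosome 3 from 102010111 to 102015492 and Id3 on chromosome 4 from 136143822 to 136145392. Of the other members, Neurod1 and Id1 lie on chromosome 2, Atoh1 on 6, Neurod2 on 11, Id2 on 12, Id4 on 13 and Tcf4 on 18.

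Across postnatal ages, the Neurod1 TRAP libraries asked how ribosome-bound RNA of the Neurod1 line changes as the cerebellum matures. Of the 10 members, 9 fell and 1, Neurod2, rose at P21 against P7. In that comparison 81.5% of 14759 genes tested were called, 38.9% higher and 42.5% lower. The median log2 fold change of the members was -1.61, beside -0.05 over all genes tested. At P12 against P7, 2 members rose and 7 fell (68.2% of all genes called, 31.5% higher and 36.7% lower, median -0.83 over the members and -0.04 over all genes). At P21 against P12, 0 rose and 8 fell (65.1% called, 32.4% higher and 32.7% lower, medians -0.93 and 0.00088). With library size in place of composition scaling the median of all genes was -0.15 at P21 against P12, with 35.7% of calls higher instead of 49.8%, and -0.22 at P21 against P7. Every called member kept its call and direction under that scaling at these ages. The comparisons with P7 share the same 5 P7 libraries.

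Atoh1, the progenitor factor, stood at 21.6, 22.5, 24.4, 27.6 and 28.4 CPM at P7 and at 3.9, 5.05, 5.14, 6.9 and 11 CPM at P12. At P21 it was at 0, 0, 0.0366, 0.0396 and 0.0692 CPM. All P12 libraries lay below all P7 libraries, and the P21 libraries held 4 counts between them. P12 was lower than P7 (log2 fold change -1.98 ± 0.24, adjusted p = 7.8e-07). P21 was called lower than P7 (adjusted p = 2.2e-12), 810-fold by the summed counts with a 95% interval of 316 to 2970 from counting error.

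The Nhlh pair separated with age. Nhlh1 stood at 182, 183, 204, 212 and 228 CPM at P7, at 88.8, 89.6, 98.4, 101 and 106 CPM at P12 and at 0.695, 1.18, 1.35, 1.69 and 1.89 CPM at P21. It was lower at P12 than at P7 (-1.10 ± 0.14, adjusted p = 7.5e-07), and most of its change lay in P21 against P12 (-6.19 ± 0.22, adjusted p = 4.1e-16). Nhlh2 stood at 272, 287, 290, 290 and 315 CPM at P7, at 137, 148, 166, 167 and 168 CPM at P12 and at 71.4, 74.4, 77.4, 79.1 and 80.1 CPM at P21. It kept a level of 76.5 ± 3.6 CPM at P21, against 291 ± 16 CPM at P7 (-1.99 ± 0.08, adjusted p = 2.4e-15). For Nhlh1 the same comparison gave 1.36 ± 0.46 CPM at P21 and 202 ± 19 CPM at P7 (-7.29 ± 0.22, adjusted p = 4.4e-18). For both genes the 3 ages did not overlap.

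Neurod1 and Neurod2, which act later in the granule cell, moved little by comparison. Neurod1 ranged from 2670 to 3120 CPM at P7, from 2770 to 2940 CPM at P12 and from 1790 to 2390 CPM at P21. P12 and P7 overlapped (adjusted p = 0.56), and P21 was lower than P7 (-0.52 ± 0.08, adjusted p = 3.4e-06). Neurod2 ranged from 522 to 625 CPM at P7, from 720 to 817 CPM at P12 and from 740 to 903 CPM at P21. It rose at P12 against P7 (0.39 ± 0.08, adjusted p = 0.00014) and was not called at P21 against P12 (0.02 ± 0.08, adjusted p = 0.84). Tcf4, the E protein partner, fell at each step, with 625 to 789 CPM at P7, 379 to 433 CPM at P12 and 256 to 326 CPM at P21. Its log2 fold change at P21 against P7 was -1.38 ± 0.07 (adjusted p = 1e-13).

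The 4 Id genes did not move together. Id2 stood at 166, 169, 169, 188 and 192 CPM at P7, at 248, 275, 277, 284 and 293 CPM at P12 and at 104, 105, 105, 110 and 136 CPM at P21. It was thus highest at P12 in every library and lowest at P21, with a rise at P12 against P7 (0.60 ± 0.08, adjusted p = 1.8e-06) and a fall at P21 against P12 (-1.32 ± 0.08, adjusted p = 1.2e-11). Id1 fell at both steps, with 12.1 to 16.3 CPM at P7, 4.36 to 8.19 CPM at P12 and 3.11 to 3.66 CPM at P21 (P21 against P7 -2.16 ± 0.14, adjusted p = 3.2e-12). Id3 was at 6.84 to 8.57 CPM at P7, 3.79 to 5.31 CPM at P12 and 1.14 to 3.45 CPM at P21 (-1.85 ± 0.22, adjusted p = 1e-07). Id4 was at 27.2 to 54.2 CPM at P7, 18.3 to 28.3 CPM at P12 and 17 to 28.4 CPM at P21. Its P21 and P7 libraries overlapped although the difference was called (-0.95 ± 0.17, adjusted p = 2.4e-05), and P21 against P12 was not called (adjusted p = 0.52).

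**Figure D1:**
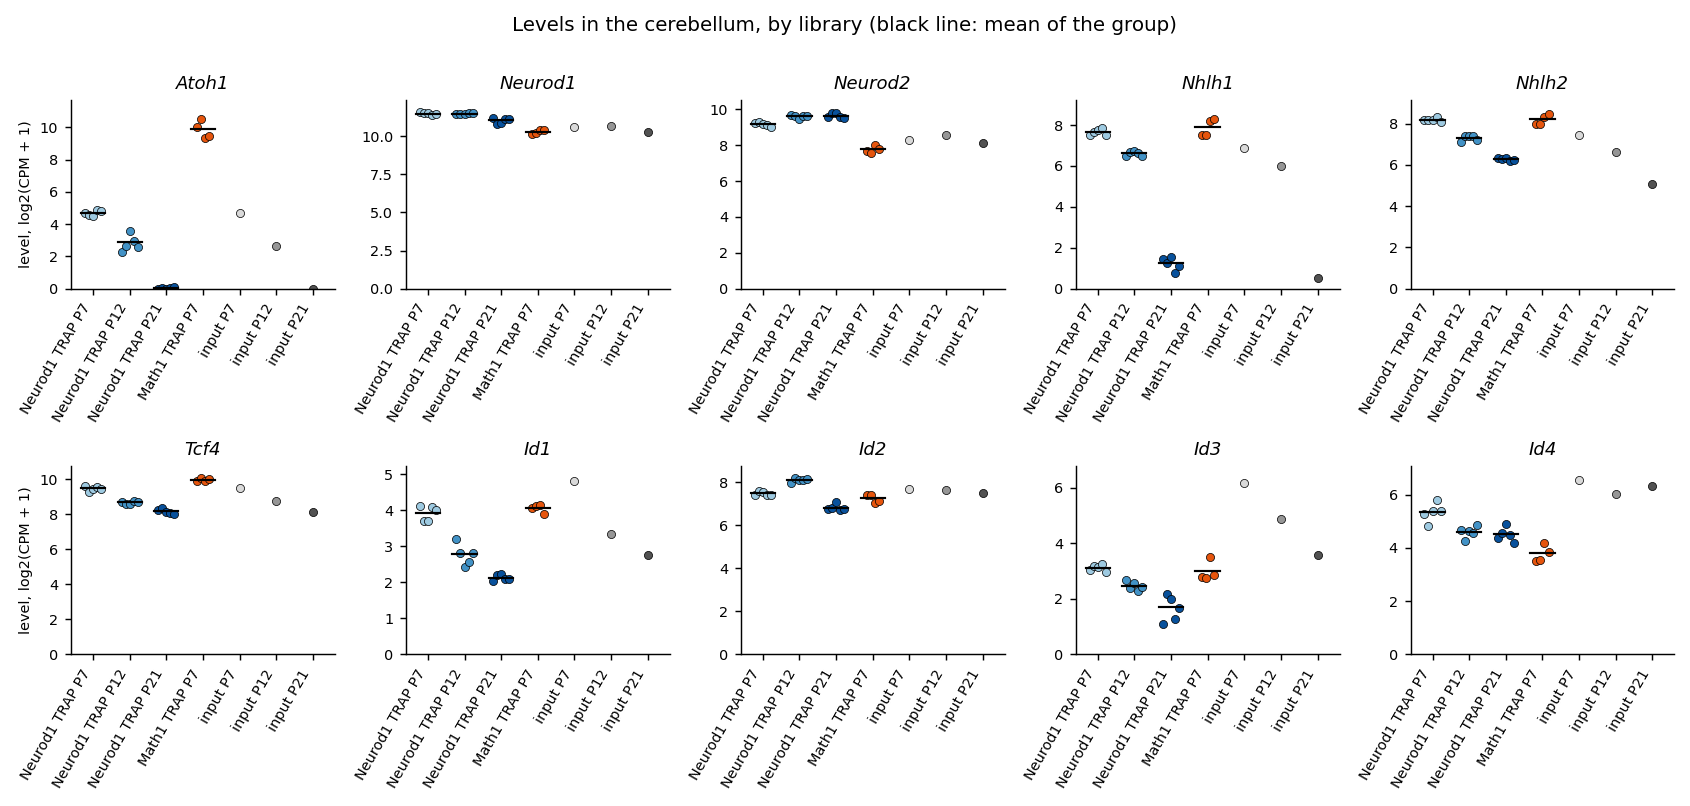
Level of each member in every library from the cerebellum, as log2(CPM + 1), by group, with a black line at the log2 of the group's mean CPM plus 1. Atoh1 and Nhlh1 end near 0 at P21, Neurod1 and Neurod2 stay high at all 3 ages, Id2 peaks at P12, and Atoh1 is highest in the 4 Math1 TRAP libraries.

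The related lists moved as follows at P21 against P7. Both other E proteins fell, Tcf3 to 50 ± 2.7 CPM at P21, against 185 ± 9.4 CPM at P7, and Tcf12 to 62.6 ± 6 CPM at P21, against 177 ± 7.6 CPM at P7 (-1.95 ± 0.10 and -1.57 ± 0.06). Of 18 other neurogenic bHLH genes 13 passed the filter on low counts, and 3 rose and 10 fell with a median of -4.55. Bhlhe22, a bHLH repressor of neurons, was at 155 ± 12 CPM at P21 and 581 ± 40 CPM at P7 (-1.97 ± 0.06, adjusted p = 2.9e-17), and Neurod6 was at 2.01 ± 0.27 CPM at P21 and 52 ± 3.2 CPM at P7. Atoh7, a relative of Atoh1 known from retinal ganglion cells, went the other way, with 14.9 ± 2.7 CPM at P21 and 0.464 ± 0.11 CPM at P7 (4.94 ± 0.24, adjusted p = 3.2e-15). The list of Hes and Hey genes, mostly repressors of the bHLH family, here also holds Bhlhe40 and Bhlhe41. Of its 10 genes 3 rose and 3 fell. Bhlhe40 was at 41.1 ± 4.5 CPM at P21 and 3.31 ± 0.33 CPM at P7, and Bhlhe41 at 93.8 ± 9.9 CPM at P21 and 14.4 ± 1 CPM at P7. Of 21 BMP and Smad genes tested 5 rose and 12 fell, among them Smad4, the common Smad, which fell to 62.5 ± 4.6 CPM at P21, against 161 ± 5.8 CPM at P7. The inhibitory Smad7 rose to 43.5 ± 3.1 CPM at P21, against 18 ± 1.1 CPM at P7. Of 17 Notch pathway genes 4 rose and 12 fell, and of 3 ETO corepressors, which E proteins bind, 1 rose (Cbfa2t3) and 1 fell (Cbfa2t2).

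Markers of progenitors and of other cells also changed with age. The summed level of 8 progenitor markers ran from 729 to 992 CPM at P7, from 300.0 to 352 CPM at P12 and from 314 to 401 CPM at P21, so that the sum was not lower at P21 than at P12. Gene by gene, 2 of the 8 rose and 6 fell at P21 against P7 (median -5.03), and 2 rose and 5 fell at P21 against P12 (median -2.31). In bulk RNA, fewer cells of a type and less RNA per cell cannot be told apart. Summed markers of astrocytes and Bergmann glia ran from 496 to 728 CPM at P7, from 778 to 917 CPM at P12 and from 743 to 958 CPM at P21. Of these 12 markers 5 rose and 4 fell at P21 against P7, and none was at 0 in all libraries of a group. Of 8 Purkinje cell markers 7 rose and 1 fell at P21 against P7, with sums of 269 to 372 CPM at P7, 633 to 772 CPM at P12 and 979 to 1170 CPM at P21. Of 12 oligodendrocyte lineage markers 8 rose and 3 fell (median 1.26). The part of any of these cell types in the changes of the members was not tested.

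The comparison of TRAP lines at P7 set the Neurod1 line, in whole tissue, against the Math1 line, in isolated progenitors. The line and the isolation of the cells thus cannot be told apart. Neurod1, Neurod2, Id4 and Id2 were higher and Atoh1 and Tcf4 were lower in the Neurod1 line, 4 and 2 of 10 members, where 72.4% of all genes were called, 36.5% higher and 35.8% lower. The median was 0.03 over the members and 0.01 over all genes. Atoh1 in the Neurod1 libraries lay between 21.6 and 28.4 CPM, against 635, 718, 1020 and 1450 CPM in the Math1 libraries (-5.29 ± 0.23, adjusted p = 1.3e-12). Neurod2 was at 580 ± 43 CPM in the Neurod1 line and at 187, 202, 224 and 256 CPM in the Math1 line (1.39 ± 0.08, adjusted p = 6.5e-12). Neurod1, the gene that names the tagged line, was at 2890 ± 160 CPM in its own line and at 1140, 1170, 1360 and 1380 CPM in the Math1 line (1.17 ± 0.08, adjusted p = 9.5e-11). Each transgene carries sequences of the gene it is named for, and its part in the Atoh1 counts of the Math1 line and the Neurod1 counts of the Neurod1 line was not tested. Neither Neurod gene overlapped between the lines. Of the inhibitors, Id4 was at 27.2, 37.6, 40.7, 41 and 54.2 CPM in the Neurod1 line and at 10.4, 10.5, 13.4 and 17 CPM in the Math1 line (1.64 ± 0.18, adjusted p = 1.2e-07). Tcf4 was at 710 ± 62 CPM in the Neurod1 line and 999 ± 59 CPM in the Math1 line (-0.52 ± 0.08, adjusted p = 3.3e-06).

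Nhlh1 and Nhlh2 did not pass the test between the lines. Nhlh1 was at 182 to 228 CPM in the Neurod1 line and at 179, 184, 289 and 317 CPM in the Math1 line, and Nhlh2 at 272 to 315 CPM in the Neurod1 line and at 252, 256, 321 and 352 CPM in the Math1 line. Without Math1 library 1 or 2 the fall of Nhlh1 was called (-0.41, adjusted p = 0.018 in both cases). With Math1 libraries 3 and 4 alone both genes were called lower in the Neurod1 line (-0.60, adjusted p = 0.00032 for Nhlh1 and -0.23, adjusted p = 0.015 for Nhlh2), and with 1 and 2 alone both were uncalled (0.13 for Nhlh1 and 0.17 for Nhlh2). Id2 was called by a narrow margin (0.20 ± 0.09, adjusted p = 0.048) with libraries that overlapped, and with Math1 libraries 1 and 2 alone its adjusted p was 0.7. The Id2 call was also lost without Math1 library 3 or 4 or Neurod1 library 2 or 3 (adjusted p from 0.097 to 0.21). Of 13 other neurogenic bHLH genes tested 10 were higher in the Neurod1 line and 0 lower, among them Bhlhe22 with 581 ± 40 CPM in the Neurod1 line and 323 ± 8.5 CPM in the Math1 line. Both other E proteins were lower in the Neurod1 line (Tcf3 -0.92 ± 0.11, Tcf12 -0.48 ± 0.07). Markers of other neurons also differed: 7 of 8 Purkinje cell markers and 6 of 8 markers of GABAergic interneurons were higher in the Neurod1 line, and 11 of 12 vascular and meningeal markers were lower. All 8 progenitor markers were lower (median -1.77). Of 12 granule cell markers, a list that holds Neurod1, 9 were higher and 3 lower. Of 12 astrocyte and Bergmann glia markers 4 were higher and 7 lower. The part of these cell types in the results was not tested.

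TRAP against input asked which members were enriched on the tagged ribosomes of the Neurod1 line over whole-cerebellum RNA, with the 3 ages in 1 model. Of 10 members 4 were higher in TRAP (Neurod1, Neurod2, Nhlh1 and Nhlh2) and 3 were lower (Id1, Id3 and Id4), where 77.8% of 15479 genes were called, 36.6% higher and 41.2% lower. The median was 0.02 over the members and -0.07 over all genes. With 1 input at each age the direction at a given age rests on a single input library. Neurod2 was at 580, 785 and 808 CPM in TRAP at P7, P12 and P21, against 308, 375 and 282 CPM in the inputs of the same ages (1.11 ± 0.09, adjusted p = 4.5e-09). Neurod1 was at 2890, 2860 and 2110 CPM in TRAP, against 1530, 1620 and 1230 CPM in the inputs (0.79 ± 0.08, adjusted p = 3.7e-08). Both Neurod genes were above the input at every age. The part of the transgene in the Neurod1 counts of TRAP was not tested.

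Id3 showed the opposite pattern. It was at 7.68, 4.5 and 2.21 CPM in TRAP at P7, P12 and P21, against 70.2, 28.1 and 11 CPM in the inputs, which were 9.14-fold, 6.24-fold and 4.98-fold higher (-2.80 ± 0.19, adjusted p = 5.6e-11). Id4 was at 40.1, 23.4 and 21.8 CPM in TRAP, against 92.1, 64.5 and 78.8 CPM in the inputs (-1.56 ± 0.16, adjusted p = 1.6e-08). Id1 was at 14.3, 5.9 and 3.36 CPM in TRAP, against 27, 9.15 and 5.7 CPM in the inputs (-0.82 ± 0.14, adjusted p = 1.1e-05). Id2 was not called (-0.22 ± 0.13, adjusted p = 0.13), and its order turned with age, with 177, 275 and 112 CPM in TRAP, against 203, 196 and 180 CPM in the inputs. Without the P12 input Id2 was called lower in TRAP (-0.45, adjusted p = 0.0019). Tcf4 was not called either (-0.07 ± 0.07, adjusted p = 0.35). With library size in place of composition scaling the median of all genes moved to -0.46, higher calls were 25.6% of all calls instead of 47.1%, and Tcf4 (-0.47) and Id2 (-0.63) were called lower in TRAP.

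Markers of other cell types were low in TRAP beside the input. All 12 astrocyte and Bergmann glia markers were lower in TRAP, with sums of 496 to 958 CPM in the 15 TRAP libraries and 2750, 2580 and 3040 CPM in the inputs. All 12 vascular and meningeal, 10 microglia, 12 oligodendrocyte lineage, 8 Purkinje cell and 8 GABAergic interneuron markers were also lower in TRAP. Of 12 granule cell markers, a list that holds Neurod1, 10 were higher and 0 lower. None of the astrocyte markers was at 0 in all libraries of a group. Their part in the lower Id levels of TRAP was not tested. Among other neurogenic bHLH genes TRAP was higher for 4 and lower for 7 of the 13 tested, and among BMP and Smad genes for 4 and 13 of the 21 tested. Among those lower was the BMP ligand Bmp7, with 1.73 ± 0.35 CPM over the TRAP libraries of all ages and 7.78 ± 1.3 CPM over the inputs (-2.21 ± 0.17, adjusted p = 3.2e-10).

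**Figure D2:**
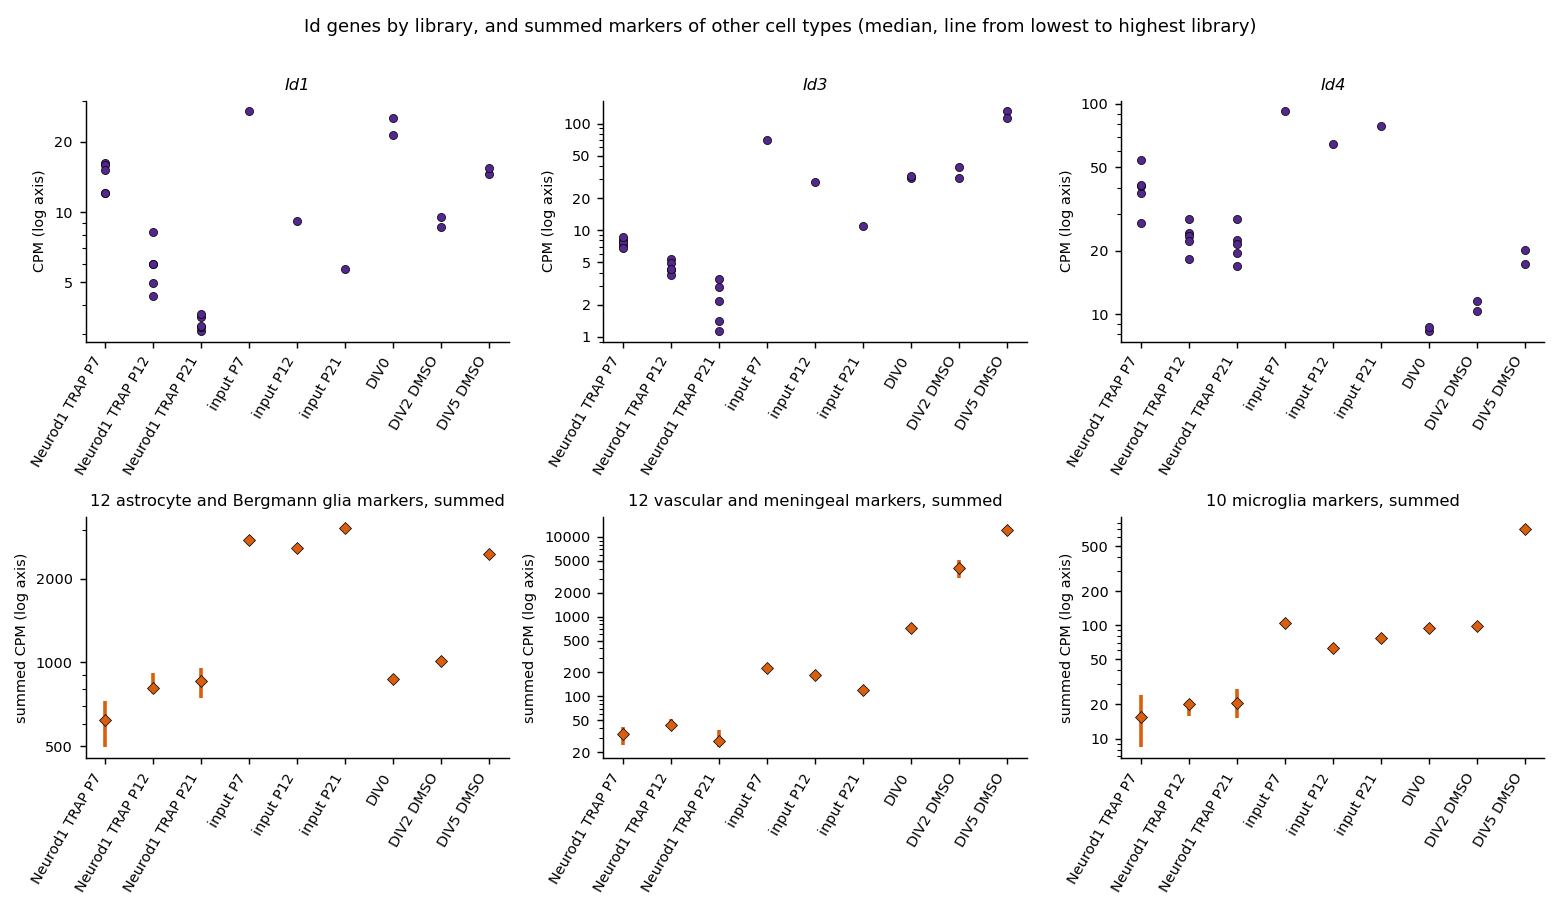
Upper panels: CPM of Id1, Id3 and Id4 in each library on a log axis, by group. Lower panels: summed CPM of the markers of astrocytes and Bergmann glia, of vessels and meninges, and of microglia, as the median with a line from the lowest to the highest library. Id3 is at 130 and 114 CPM in the DIV5 libraries, above all 3 inputs, and the sums of vascular and meningeal markers rise to 11500 to 12900 CPM at DIV5. Gene by gene, 5 of these 12 markers rose and 7 fell at DIV5 against DIV0.

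In culture the members were followed from isolated cells (DIV0) over DIV2 to DIV5 with DMSO. All 10 members were called at DIV5 against DIV0, 3 higher (Neurod2, Id3 and Id4) and 7 lower, where 78.3% of 15978 genes were called, 40.2% higher and 38.2% lower. The median was -0.80 over the members and 0.04 over all genes. At DIV2 against DIV0, 3 rose (Neurod1, Neurod2 and Id4) and 6 fell (71.3% of genes called, 36.4% higher and 35% lower, medians -0.90 and 0.02). At DIV5 against DIV2 the 4 Id genes rose and the 6 others fell (66.7% called, 31.1% higher and 35.7% lower, medians -0.83 and -0.05). With library size in place of composition scaling the median of all genes was 0.09 at DIV5 against DIV2, with 57.4% of calls higher instead of 46.6%, and 0.15 at DIV5 against DIV0, and every called member kept its call and direction. Each group has 2 libraries, and the comparisons share them.

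Atoh1 was at 48.2 and 47.2 CPM at DIV0, 0.743 and 0.677 CPM at DIV2 and 0.0536 and 0.0813 CPM at DIV5. Most of the fall had taken place by DIV2 (-5.98 ± 0.27, adjusted p = 7.2e-13), and the DIV5 libraries held 3 counts, 689-fold below DIV0 with a 95% interval of 236 to 3350 from counting error. Nhlh1 was at 296 and 305 CPM at DIV0, 40.5 and 41.9 CPM at DIV2 and 3.11 and 3.62 CPM at DIV5. Nhlh2 was at 416 and 417 CPM at DIV0, 111 and 97.9 CPM at DIV2 and 19.8 and 20.3 CPM at DIV5. Both genes fell at each step, by -6.50 ± 0.10 (adjusted p = 2.8e-16) for Nhlh1 and -4.41 ± 0.07 (adjusted p = 2.5e-15) for Nhlh2 at DIV5 against DIV0.

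The Neurod genes peaked at DIV2. Neurod2 was at 176 and 184 CPM at DIV0, 524 and 499 CPM at DIV2 and 230 and 232 CPM at DIV5, a rise at DIV2 against DIV0 (1.57 ± 0.05, adjusted p = 1.1e-12) and a fall at DIV5 against DIV2 (-1.25 ± 0.05, adjusted p = 4.3e-11). Neurod1 was at 1320 and 1310 CPM at DIV0, 1510 and 1450 CPM at DIV2 and 708 and 710 CPM at DIV5 (DIV5 against DIV2 -1.16 ± 0.05, adjusted p = 5.1e-11). Tcf4 fell at each step, with 1440 and 1420 CPM at DIV0, 783 and 746 CPM at DIV2 and 577 and 589 CPM at DIV5 (DIV5 against DIV0 -1.33 ± 0.04, adjusted p = 2.3e-12).

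All 4 Id genes rose at the later step. Id3 was at 30.6 and 31.9 CPM at DIV0, 30.7 and 39 CPM at DIV2 and 130 and 114 CPM at DIV5. It was not called at DIV2 against DIV0 (adjusted p = 0.13) and rose at DIV5 against DIV2 (1.72 ± 0.11, adjusted p = 2.5e-07). Without DIV2 library 1 Id3 was already called higher at DIV2 against DIV0 (0.34, adjusted p = 0.0035). Id4 was at 8.35 and 8.67 CPM at DIV0, 11.5 and 10.3 CPM at DIV2 and 20.2 and 17.3 CPM at DIV5 (DIV5 against DIV0 1.10 ± 0.11, adjusted p = 4.2e-07). Its rise at DIV2 against DIV0 (0.43 ± 0.12, adjusted p = 0.0047) was lost without DIV0 library 1 or DIV2 library 1 (adjusted p = 0.063 and 0.086). Id1 and Id2 dipped and came back in part. Id1 was at 21.5 and 25.3 CPM at DIV0, 9.54 and 8.63 CPM at DIV2 and 14.6 and 15.5 CPM at DIV5 (DIV5 against DIV2 0.63 ± 0.12, adjusted p = 0.00024). Id2 was at 99.8 and 99.6 CPM at DIV0, 50.5 and 46.6 CPM at DIV2 and 75.2 and 75 CPM at DIV5 (0.53 ± 0.06, adjusted p = 1.9e-06).

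**Figure D3:**
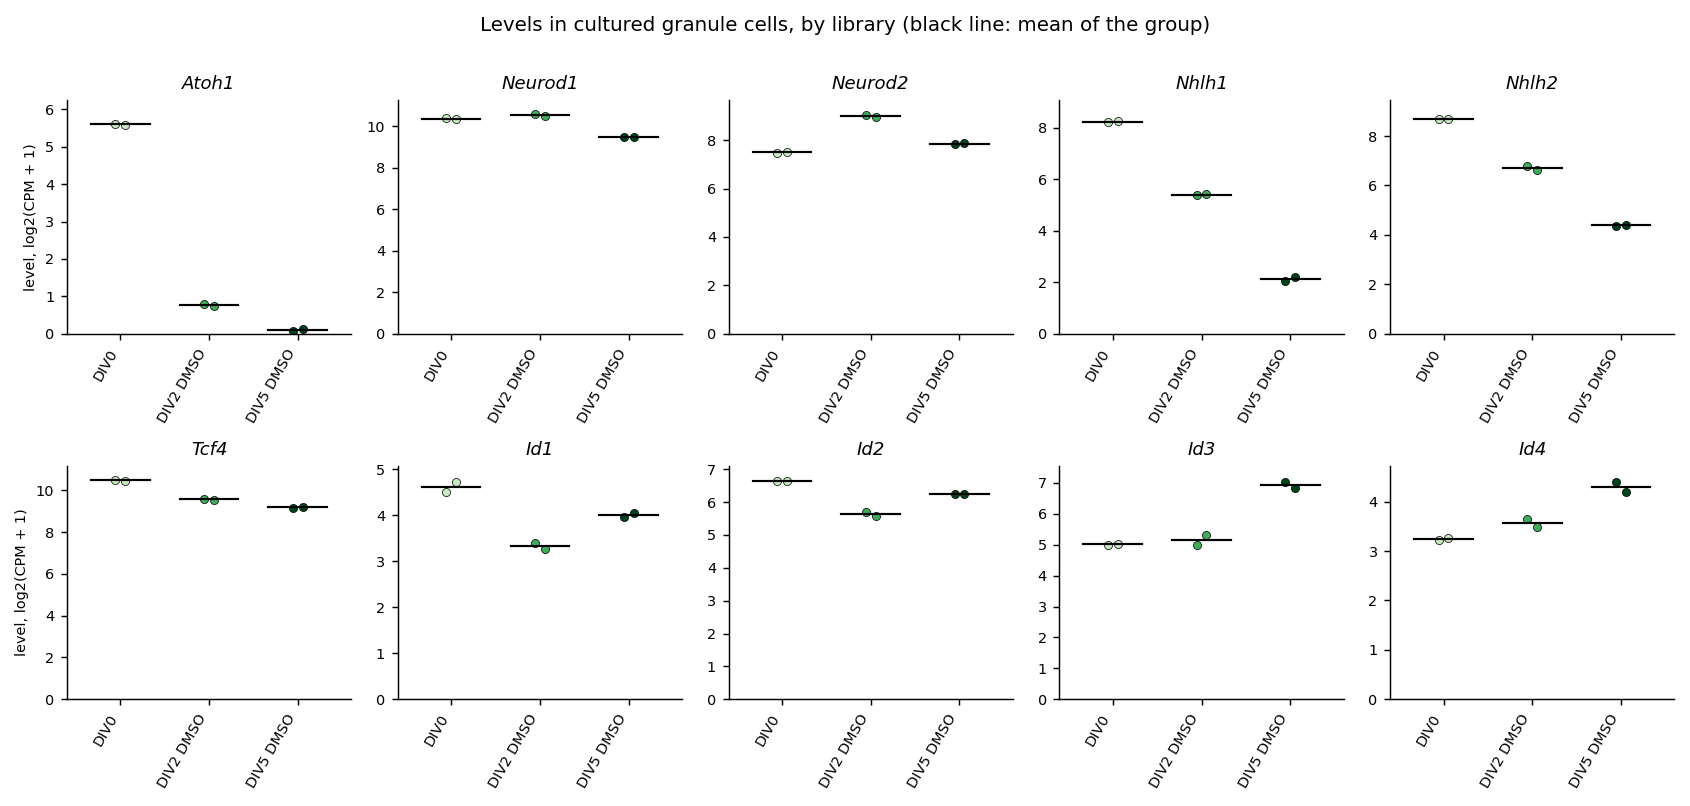
Level of each member in each culture library at DIV0, DIV2 and DIV5, as log2(CPM + 1), with a black line at the log2 of the group's mean CPM plus 1. Atoh1, Nhlh1, Nhlh2 and Tcf4 step down, Neurod1 and Neurod2 are highest at DIV2, and Id3 and Id4 are highest at DIV5.

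Among the related lists, both other E proteins fell at DIV5 against DIV0, Tcf12 to 145 ± 4.9 CPM at DIV5, against 346 ± 6.2 CPM at DIV0, and Tcf3 to 90 ± 4.2 CPM at DIV5, against 191 ± 7.9 CPM at DIV0. Of 15 other neurogenic bHLH genes tested 3 rose and 10 fell, among them Neurod6 with 4.75 ± 1.3 CPM at DIV5 and 46.2 ± 1.1 CPM at DIV0 and Bhlhe22 with 142 ± 3.3 CPM at DIV5 and 269 ± 1.2 CPM at DIV0. At DIV5 against DIV2, 11 of 22 BMP and Smad genes rose and 7 fell, and their part in the Id levels was not tested. The receptor Acvr2a fell to 50.4 ± 2.3 CPM at DIV5, against 121 ± 14 CPM at DIV2 (-1.36 ± 0.07, adjusted p = 1e-09), and the 3 other genes named rose. Bmp4 was at 33.8 ± 0.66 CPM at DIV5 and 4.02 ± 1.5 CPM at DIV2 (3.02 ± 0.18, adjusted p = 5.9e-09), and Bmp7 at 43.4 ± 4.8 CPM at DIV5 and 8.46 ± 2.2 CPM at DIV2. Smad6, an inhibitory Smad, was at 12 ± 1.2 CPM at DIV5 and 2.7 ± 0.17 CPM at DIV2 (2.06 ± 0.16, adjusted p = 1.7e-08). Of 9 Hes and Hey genes tested 5 rose and 2 fell at this step, Hes1 with 12.9 ± 0.21 CPM at DIV5 and 5.07 ± 1.2 CPM at DIV2, and of 17 Notch pathway genes 10 rose and 5 fell. All 3 ETO corepressors fell at DIV5 against DIV2.

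Markers of other cells moved at the same step. At DIV5 against DIV2 all 12 astrocyte and Bergmann glia markers, 9 of 12 vascular and meningeal markers and all 10 microglia markers rose, and 0 of them fell. The astrocyte sum was at 871 to 875 CPM at DIV0, 1010 to 1020 CPM at DIV2 and 2450 CPM in both DIV5 libraries. The vascular and meningeal sum was at 725 to 739 CPM at DIV0, 3050 to 5080 CPM at DIV2 and 11500 to 12900 CPM at DIV5, and the collagen Col1a1, made by fibroblasts, held 7060 CPM of it at DIV5. Gene by gene, 3 of these 12 markers rose and 9 fell at DIV2 against DIV0 (median -3.47). At DIV5 against DIV0, 5 rose and 7 fell (median -1.99). The endothelial markers Cldn5 and Pecam1 were at 0.813 and 1.51 CPM at DIV5, against 52.7 and 31.9 CPM at DIV0. The microglia sum was at 93.9 to 96.8 CPM at DIV0, 97.2 to 100.0 CPM at DIV2 and 696 to 719 CPM at DIV5. None of these markers was at 0 in both libraries of a group. Granule cell markers, a list that holds Neurod1, summed to 4800 to 4890 CPM at DIV0, 5940 to 6120 CPM at DIV2 and 3530 to 3600 CPM at DIV5. Gabra6, the GABA-A receptor subunit of mature granule cells, was at 14.8 ± 0.83 CPM at DIV5, against 0.029 ± 0.041 CPM at DIV0. The part of these other cells in the rise of the Id genes and the fall of the Neurod genes was not tested.

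Per kilobase of exon, which allows levels of different genes to be set side by side, Id2 led in all Neurod1 TRAP and input groups and at DIV0, and Id3 led at DIV2 and DIV5. Id2 was at 72.6, 113 and 45.9 CPM per kb in the Neurod1 TRAP groups at P7, P12 and P21, 71.7%, 88.5% and 81.7% of the Id total per kb. Id3 was at 6.01, 3.52 and 1.73 CPM per kb in the same groups. In culture Id2 was at 40.9, 19.9 and 30.8 CPM per kb at DIV0, DIV2 and DIV5, and Id3 at 24.4, 27.2 and 95.5 CPM per kb. Id2 thus held 46.6% of the total at DIV0 and 21.4% at DIV5, and Id3 27.8% at DIV0 and 66.2% at DIV5. In the inputs, total RNA like the cultures, Id2 held 44.9%, 63.3% and 68.4% at P7, P12 and P21, and Id3 29.6%, 17.3% and 7.99%. Id1 was at 12.3, 5.09 and 2.9 CPM per kb in TRAP and 20.2, 7.84 and 13 CPM per kb in culture. Id4 was at 10.4, 6.08 and 5.66 CPM per kb in TRAP and 2.21, 2.83 and 4.88 CPM per kb in culture.

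Whether the members changed differently in culture (DIV5 against DIV0) and in tissue (P21 against P7) was tested as a difference of the log2 fold changes, in libraries that the changes do not share. Of 10 members 5 were higher in culture relative to tissue (Nhlh1, Id1, Id2, Id3 and Id4) and 2 lower (Nhlh2 and Neurod1), where 66.3% of 16455 genes were called, 38.3% higher and 28% lower. The median was 0.28 over the members and 0.17 over all genes, and with library size in place of composition scaling the median of all genes was 0.38. Id3 had the largest difference of the 10, 3.84 ± 0.31 (adjusted p = 2.5e-08), since it rose in culture and fell in tissue. Id4 did the same (2.12 ± 0.31, adjusted p = 1.8e-05), and Id1 fell in both but less in culture (1.55 ± 0.19, adjusted p = 2e-06). For the Nhlh pair the differences had opposite signs: Nhlh2 fell further in culture (-2.35 ± 0.10, adjusted p = 1.2e-11) and Nhlh1 fell further in tissue (0.85 ± 0.27, adjusted p = 0.011). Neurod1 (-0.34 ± 0.14, adjusted p = 0.041) and Id2 (0.35 ± 0.14, adjusted p = 0.036) were near the threshold. The Neurod1 call was lost without P7 library 3, 4 or 5 or any single culture library (adjusted p from 0.052 to 0.17) and with library size scaling (-0.13, adjusted p = 0.46). The Id2 call was lost without P7 library 2 or 3, P21 library 1, 2, 4 or 5, DIV0 library 1 or 2 or DIV5 library 1 (adjusted p from 0.051 to 0.11), and that of Nhlh1 without DIV5 library 2 (0.78, adjusted p = 0.07). With library size scaling Tcf4 was called higher (0.33, adjusted p = 0.038). Neurod2, Tcf4 and Atoh1 were not called (adjusted p = 0.89, 0.48 and 0.8). The culture libraries hold total RNA and the tissue libraries ribosome-bound RNA. The changes also started from unlike levels of progenitor markers. The sums of these 8 markers were 2770 to 2830 CPM at DIV0 and 729 to 992 CPM in P7 Neurod1 TRAP. Their spans differed too, DIV0 to DIV5 and P7 to P21. The kind of RNA, the starting cells, the span of time and the setting thus cannot be told apart. Markers of other cells differed in the same test: 9 of 10 microglia markers were higher in culture relative to tissue and 0 lower (median 2.73), and 7 of 12 astrocyte and Bergmann glia markers were higher and 2 lower. Of 12 vascular and meningeal markers 5 were higher and 7 lower. Their part in the differences of the Id genes was not tested.

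**Figure D4:**
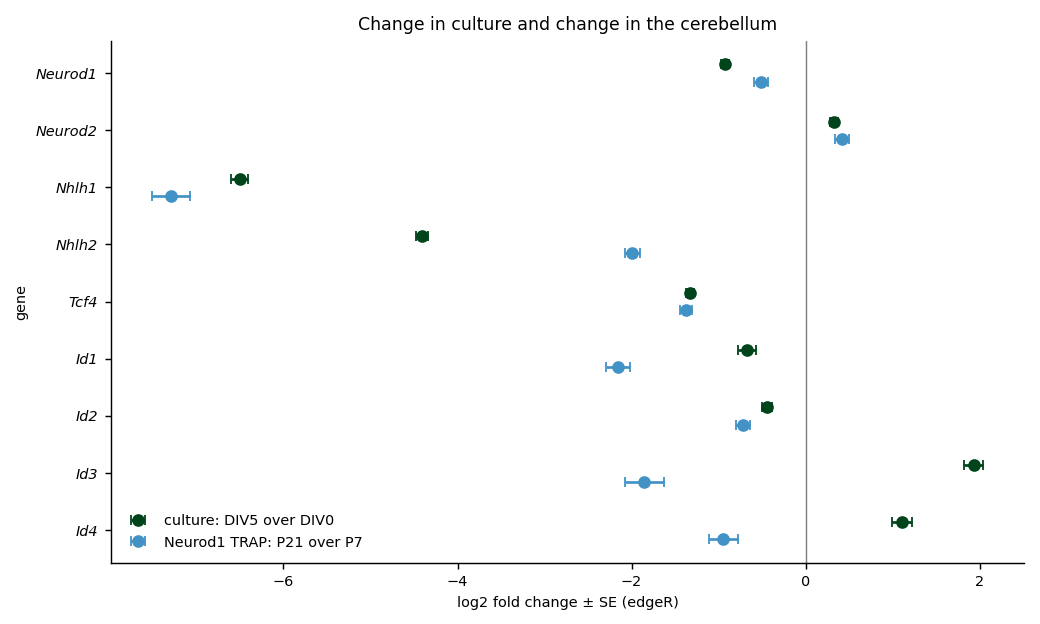
Log2 fold change ± SE (edgeR) of 9 members in culture (DIV5 over DIV0) and in Neurod1 TRAP tissue (P21 over P7), with a grey line at 0. Atoh1 is not drawn because it holds 3 and 4 counts in the later groups. Id3 and Id4 lie right of 0 in culture and left of it in tissue, and Nhlh2 lies further left in culture than in tissue.

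UNC1999 against DMSO at DIV5 asked whether the inhibitor of EZH2 and EZH1 changed the members. Of 10 members 3 were higher with UNC1999 (Neurod1, Neurod2 and Id2) and 2 lower (Nhlh1 and Tcf4), where 11.9% of 15978 genes (1899) were called, 6.36% higher and 5.53% lower. The number of genes called was 932 without UNC1999 library 2, 939 without DMSO library 1 and 1098 without UNC1999 library 1, and the number of members was 3 without DMSO library 2 or either UNC1999 library. The median was -0.08 over the members and 0.00086 over all genes. Nhlh1 was at 1.3 and 1.36 CPM with UNC1999 and at 3.11 and 3.62 CPM with DMSO (-1.33 ± 0.15, adjusted p = 8.8e-05). Neurod1 was at 914 and 880 CPM with UNC1999 and at 708 and 710 CPM with DMSO (0.36 ± 0.05, adjusted p = 0.00024). Neurod2 was at 275 and 273 CPM with UNC1999 and at 230 and 232 CPM with DMSO (0.26 ± 0.05, adjusted p = 0.003). The libraries did not overlap for any member except Nhlh2, whether called or not. The lack of overlap thus does not set these 3 genes apart. Tcf4 was at 502 and 512 CPM with UNC1999 and at 577 and 589 CPM with DMSO (-0.19 ± 0.04, adjusted p = 0.015), and the call was lost when these 4 libraries were fitted alone (adjusted p = 0.068) and without DMSO library 2 or either UNC1999 library (adjusted p from 0.056 to 0.061).

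Id2 was at 82.8 and 86.9 CPM with UNC1999 and at 75.2 and 75 CPM with DMSO (0.19 ± 0.06, adjusted p = 0.04). That call was lost with each library left out in turn (adjusted p from 0.086 to 0.19) and with DESeq2 (adjusted p = 0.23). The other Id genes did not pass: Id3 was at 104 and 102 CPM with UNC1999 and 130 and 114 CPM with DMSO (adjusted p = 0.19), Id1 at 11.8 and 13.2 CPM with UNC1999 and 14.6 and 15.5 CPM with DMSO (adjusted p = 0.16), and Id4 at 15.6 and 16 CPM with UNC1999 and 20.2 and 17.3 CPM with DMSO (adjusted p = 0.17). Nhlh2, the relative of Nhlh1, was at 19.2 and 21.3 CPM with UNC1999 and 19.8 and 20.3 CPM with DMSO (0.03 ± 0.08, adjusted p = 0.83). Atoh1 held 11 counts with UNC1999 and 3 with DMSO, a ratio of 2.79 with a 95% interval of 0.738 to 15.6 from counting error, and was not called (adjusted p = 0.29). Of 15 other neurogenic bHLH genes tested 1 rose, Atoh7, with 2.07 ± 0.29 CPM with UNC1999 and 0.903 ± 0.22 CPM with DMSO (1.19 ± 0.29, adjusted p = 0.013). Of 9 Hes and Hey genes 2 rose, of 22 BMP and Smad genes 2 rose and 1 fell, of 17 Notch pathway genes 2 rose and 4 fell, and 2 of 3 ETO corepressors rose. The single BMP and Smad gene that fell was Bmp4, with 25.2 ± 1.3 CPM with UNC1999 and 33.8 ± 0.66 CPM with DMSO (-0.41 ± 0.12, adjusted p = 0.048).

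Cell type markers also moved with UNC1999. Of 12 granule cell markers, a list that holds Neurod1, 9 were higher and 0 lower, with sums of 4760 to 4910 CPM with UNC1999 and 3530 to 3600 CPM with DMSO. Of 12 astrocyte and Bergmann glia markers 0 were higher and 7 lower (2000 to 2200 CPM with UNC1999 and 2450 CPM with DMSO), and of 12 vascular and meningeal markers 3 were lower (9780 to 10200 CPM with UNC1999 and 11500 to 12900 CPM with DMSO). Their part in the changes of the Neurod and Id genes was not tested.

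Ezh1 cKO against wt cultures asked the same of the loss of Ezh1 alone. Ezh1 itself was at 30.7 ± 1.2 CPM in cKO and 38.6 ± 3.1 CPM in wt (-0.34 ± 0.09, adjusted p = 1), and Ezh2 was at 45.9 ± 5.2 CPM in cKO and 45.9 ± 6.3 CPM in wt. The labels do not give the deleted exons, so counts over the whole gene do not check the deletion. Atoh1, with 21 counts in cKO and 25 in wt, did not pass the filter on low counts. Of the 9 members tested 0 were called, where 0% of 14461 genes were called by edgeR. At an unadjusted p under 0.05 edgeR found 169 genes (1.17%) and 0 of the 9 members, and DESeq2 called 1 gene. The smallest unadjusted p of a member was 0.485. The share of 1.17% is lower than an unadjusted p under 0.05 gives when nothing differs. The fit had no term for the sets of Ezh1 libraries, so the difference between the sets entered its error. The 0 calls therefore do not show a lack of effect. With such a term 1 gene and 0 members were called.

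Levels differed between the sets of libraries in both genotypes. Nhlh1 was at 1.47, 2.71, 11.3 and 11.5 CPM in cKO and 1.88, 2.01, 14.7, 16.1 and 16.8 CPM in wt. Within the libraries numbered 1 and 2 the means were 2.09 CPM in cKO and 1.95 CPM in wt, and within those numbered 3 to 5 they were 11.4 CPM in cKO and 15.9 CPM in wt. Neurod1 was at 580 CPM in cKO and 553 CPM in wt in the first set and at 1050 CPM in cKO and 1070 CPM in wt in the second. Id3 was at 286 CPM in cKO and 349 CPM in wt in the first set and at 226 CPM in cKO and 202 CPM in wt in the second, and Id4 at 127 CPM in cKO and 117 CPM in wt in the first set and at 80 CPM in cKO and 68.8 CPM in wt in the second. Sums of astrocyte and Bergmann glia markers ran from 5270 to 12500 CPM in cKO and from 2770 to 12400 CPM in wt. The difference between the UNC1999 and the cKO effect was not called for any of the 9 members tested, with a smallest unadjusted p of 0.199 and 0% of 15453 genes called (247 genes, 1.6%, at an unadjusted p under 0.05, and 7 genes by DESeq2). With the replicate number as a block that difference was called for 2 genes, and for 0 members. The main fit of that difference had no term for the sets either, so its 0 calls do not show that the effects are alike. With that term 7 genes and 0 members were called. The error of the cKO effect was wide for some members, as in Nhlh1 with -0.62 ± 0.84.

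**Figure D5:**
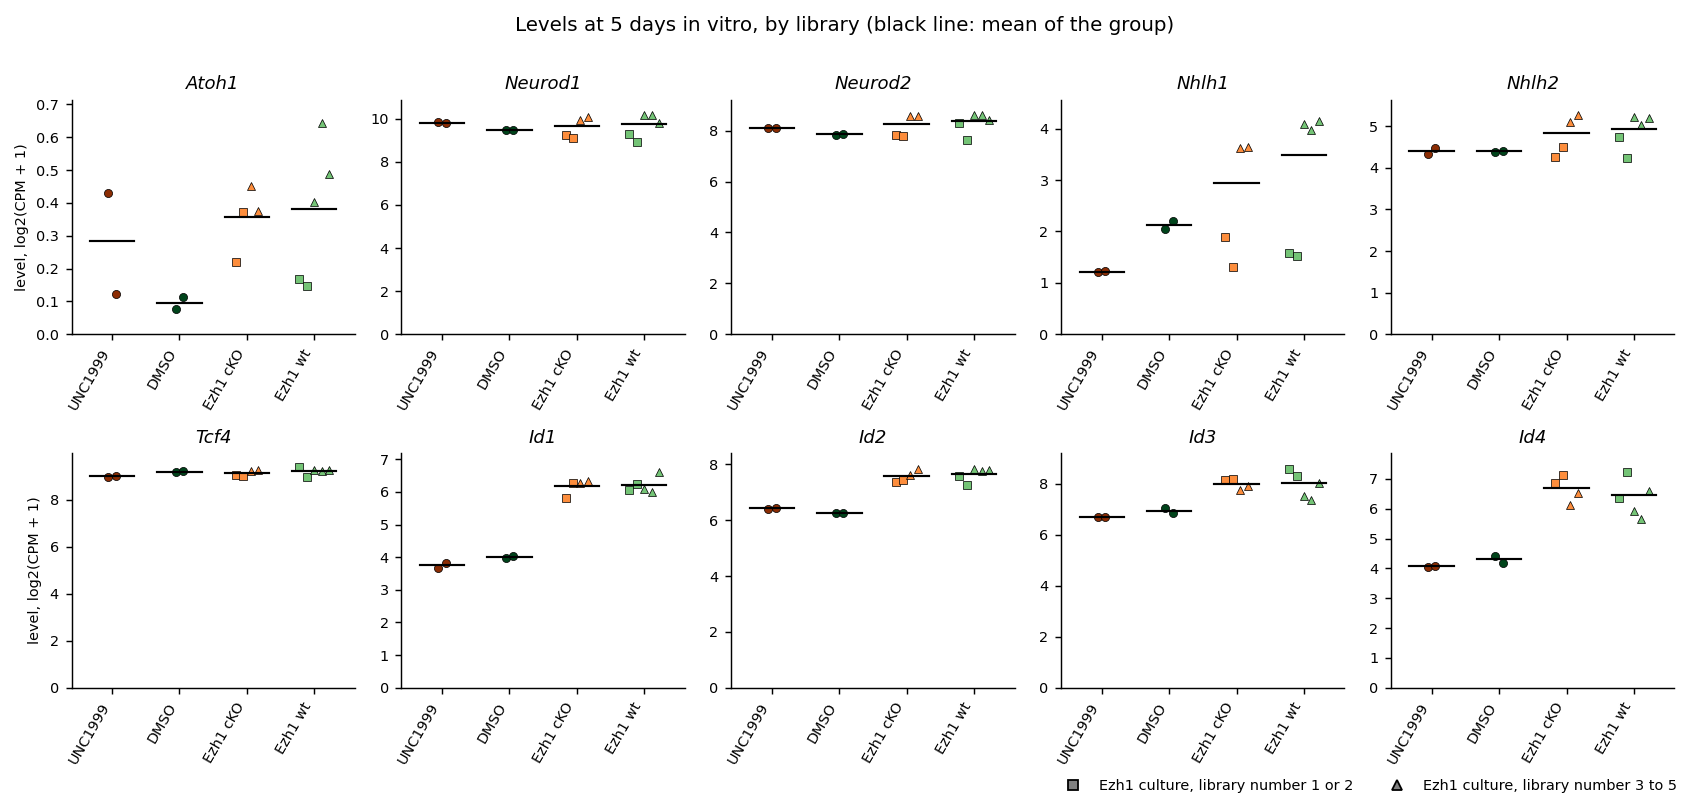
Level of each member in each DIV5 library with UNC1999 or DMSO and in the Ezh1 cKO and wt cultures, as log2(CPM + 1), with a black line at the log2 of the group's mean CPM plus 1. Squares are Ezh1 libraries numbered 1 or 2 and triangles those numbered 3 to 5. Nhlh1 is lower with UNC1999 than with DMSO, and in the Ezh1 cultures squares and triangles separate for Nhlh1 and Neurod1 in both genotypes.

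Math1 TRAP against DIV0 set ribosome-bound RNA of isolated P7 progenitors beside total RNA of isolated P6 to P7 cells. Of 10 members 3 were higher in Math1 TRAP (Atoh1, Id2 and Id4) and 4 lower (Nhlh2, Tcf4, Id1 and Id3), where 66.6% of 14804 genes were called, 33.3% higher and 33.4% lower. Medians were -0.18 over the members and -0.03 over all genes, and with library size in place of composition scaling -0.24 over all genes, with 37.8% of calls higher instead of 49.9%. Without DIV0 library 2 the calls of Nhlh2, Id1 and Id4 were lost and 4 were left. Nhlh2 was also lost without DIV0 library 1, and Id4 without DIV0 library 1, without Math1 library 3 or 4 and with library size scaling, while Neurod2 was called higher without Math1 library 2 (0.34, adjusted p = 0.027). With Math1 libraries 1 and 2 alone Nhlh1 (-0.66, adjusted p = 9.7e-06) and Neurod1 (-0.13, adjusted p = 0.021) were called lower and Neurod2 higher (0.17, adjusted p = 0.022), and with 3 and 4 alone only Neurod2 was added to the calls (0.41, adjusted p = 0.00011). Atoh1 was at 956 ± 370 CPM in Math1 TRAP and 47.7 ± 0.66 CPM at DIV0 (4.34 ± 0.29, adjusted p = 2.1e-05). That line carries a transgene with Atoh1 sequences, and the part of the transgene in the Atoh1 counts was not tested. Id3 was at 5.75, 5.85, 6.17 and 10.3 CPM in Math1 TRAP and 30.6 and 31.9 CPM at DIV0 (-2.16 ± 0.23, adjusted p = 5e-05). Id2 was at 151 ± 21 CPM in Math1 TRAP and 99.7 ± 0.12 CPM at DIV0 (0.61 ± 0.12, adjusted p = 0.0027). All 12 vascular and meningeal markers were lower in Math1 TRAP, with sums of 63.8 to 115 CPM in Math1 TRAP and 725 to 739 CPM at DIV0, and 8 of 9 microglia markers tested were lower too. Their part in the lower Id3 was not tested.

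Over all 13 groups each member had its own order of levels. The groups differ in kind of RNA, experiment, cell type markers and transgenes, and the part of these in the order was not tested. Atoh1 was highest in Math1 TRAP, ahead of DIV0 with 47.7 CPM and the P7 Neurod1 TRAP group with 24.9 CPM, and it was at 0 counts in the P21 input, which allows up to 0.0949 CPM at 3 counts. Its levels in P7 TRAP and P7 input overlapped. Neurod1 was highest in P7 and P12 TRAP, which overlapped, and lowest in the DIV5 cultures with DMSO, whose range overlapped with the Ezh1 cultures. Neurod2 was highest in P21 and P12 TRAP, which overlapped, and lowest at DIV0, next to Math1 TRAP with 217 CPM. Nhlh1, Nhlh2 and Tcf4 were all highest at DIV0, ahead of Math1 TRAP, with an overlap between the top 2 groups for Nhlh1 only. Id1 and Id3 were highest in the Ezh1 cultures, with 73.5 ± 14 CPM for Id1 and 261 ± 91 CPM for Id3 in wt, against 71.6 ± 11 and 256 ± 37 CPM in cKO. Both were lowest in P21 TRAP. Id4 was highest in the same cultures, overlapping with the P7 input, and lowest at DIV0. Id2 was highest in P12 TRAP, with 275 ± 17 CPM and no overlap with the next group, and lowest at DIV2.

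As a description over the same 13 group means, which share scaling and, within an experiment, preparation, the Pearson correlation of log2(CPM + 1) was highest among member pairs for Nhlh1 with Nhlh2 (0.896). Atoh1 gave 0.834 with Nhlh1 and 0.828 with Nhlh2, Id1 gave 0.799 with Id3, and Neurod1 gave 0.745 with Neurod2 and -0.809 with Id3. Among 11859 genes, the 3 most alike to Atoh1 were Popdc3 (0.976), Shc2 (0.962) and Mfng (0.962), and to Neurod1 Klhdc10 (0.965), Rsrc2 (0.964) and Homer1 (0.963). Neurod2 was nearest to Thra (0.97), Zfand5 (0.965) and Marchf9 (0.96). Nhlh1 was nearest to Igfbpl1 (0.987), Rcor2 (0.98) and Draxin (0.974), and Nhlh2 to Asb7 (0.982), Zfp606 (0.979) and Smarcd1 (0.974). Bclaf1 (0.971) was among the 3 genes nearest to Tcf4. Among the inhibitors, Id1 was nearest to Adgrg6 (0.941), Abcd3 (0.94) and Iqcg (0.934), Id3 to Rhoj (0.983), Pgm5 (0.982) and Tcf7 (0.981), and Id4 to Hopx (0.94), Mro (0.935) and Fam81a (0.92). Id2 had the lowest values, with Pts (0.871), Fam185a (0.87) and Arhgdig (0.852).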

How the data were processed

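The authors deposited estimated counts, 1 whole number per gene and library, with no normalization. Salmon 0.8.2 and the build mm10 are named, without a role, per the submitters' processing notes. The annotation, the way transcripts were summed to genes and any filter are not given in the sources used here. Of 24100 Entrez genes 24045 were matched to a symbol, and 1041 genes blank in the 9 Ezh1 libraries were left out of the fits that use these libraries. The labels mention no molecular identifiers, and count intervals cover counting error only.

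The members and all lists (other E proteins, other neurogenic bHLH genes, Hes and Hey genes, BMP and Smad genes, Notch pathway genes, ETO corepressors and cell type markers) were chosen with earlier results of these data known. Libraries were grouped by label. In R 4.3.3, edgeR 4.0.16 was run on all genes in 7 fits for 13 comparisons: filterByExpr (minimum count 10, minimum total 15), TMM scaling, robust quasi-likelihood tests, two-sided, with Benjamini-Hochberg adjustment and calls at 0.05. The 4 TRAP groups, and the 4 culture groups, shared a fit, and TRAP against input had age as a factor. CPM use a single set of TMM factors over the 39 libraries. Exon lengths per kb are the union of exons in GENCODE M21 basic. Named genes are all members, up to 4 genes per list and comparison by adjusted p among those called, up to 3 markers per cell type by level (Gabra6, Col1a1, Cldn5 and Pecam1 were singled out after their values were seen), Ezh1 and Ezh2, and the genes most alike to each member. Some genes that this rule names are not reported here.

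In the Ezh1 cultures same-numbered cKO and wt libraries deviate together (correlations of 0.821 to 0.9 over 4 pairs), but so do differently numbered libraries of a set (0.905 for wt 2 with cKO 1), so the data show the sets 1 to 2 and 3 to 5 rather than pairs by number. No label names a shared batch. In no other fit did every pair exceed 0.1. Alternatives were DESeq2 1.42.0, library size only, no filter, only the groups compared, the replicate block, single pairs of Math1 libraries, each library left out, and, chosen after seeing the data, a term for the set of Ezh1 libraries. Scripts were tested on simulated data.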

Additional observations from a re-analysis of the deposited data

Results flagged for a closer look

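In 3 of 60 sets of 4 or 5 libraries of a gene, 1 library lay far from the others, and chance alone does this in about 1 of 20 sets. Id1 in cKO library 1 was at 54.8 CPM, beside 75.9 to 79.1 CPM in the other cKO libraries. Id2 in P21 Neurod1 TRAP library 3 was at 136 CPM, beside 104 to 110 CPM in the others. Id3 in Math1 TRAP library 3 was at 10.3 CPM, beside 5.75 to 6.17 CPM in the others.

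For 7 members the change in culture (DIV5 against DIV0) and the change in tissue (P21 against P7) differed when the difference was tested with edgeR, where 66.3% of 16455 genes were called, so that 7 of 10 is near the share over all genes. The log2 difference, culture minus tissue, was 3.84 for Id3, 2.12 for Id4, 1.55 for Id1, 0.85 for Nhlh1, 0.35 for Id2, -0.34 for Neurod1 and -2.35 for Nhlh2. Id3 and Id4 rose in culture and fell in tissue, while the other 5 fell in both. The calls of Neurod1, Id2 and Nhlh1 were lost when some single libraries were left out, with adjusted p of up to 0.17, 0.11 and 0.07.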

How the results depend on the processing

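With DESeq2 125 of 128 member values kept their direction and side of the threshold, with library size only 120, without a filter 125, and with the replicate block 111 of 118. UNC1999 against DMSO called 1899 genes with edgeR, 955 with DESeq2 and 932 to 1297 with a library left out, and 5 members, 3 when only its 2 groups were fitted and 3 to 4 with a library left out. Ezh1 cKO against wt called 0 genes, and 1 with DESeq2 or with the term for the set of libraries. The difference of the UNC1999 and cKO effects called 0 genes, 7 with DESeq2 or the set term and 2 with the replicate block. Math1 TRAP against DIV0 called 7 members, 4 to 8 with a library left out and 8 with the block. In the Ezh1 libraries, which fall into sets and not into pairs by number, the replicate block changed no other call. In the other fits the numbers do not pair the libraries (correlations from -0.364 to 0.242 in Neurod1 TRAP and -0.161 to 0.0759 in the cultures), and the block left 1546 genes and 4 members in UNC1999 against DMSO. The following sign changes were all of values uncalled in the main fit, and the cause was not tested. Among the ranges below, the ends at -0.45 for Id2 and 0.34 for Id3 were called with a library left out. With library size only, log2 fold changes turned to -0.14 for Neurod2 (P21 against P12), -0.22 for Atoh1 (TRAP against input) and 0.20 for Neurod2 (culture minus tissue). Without a filter Tcf4 was at 0.0071 (TRAP against input). With Math1 libraries 1 and 2 only, Nhlh1 was at 0.13 and Nhlh2 at 0.17 (Neurod1 against Math1), and with 3 and 4 only Id3 was at -0.13 there and Neurod1 at 0.049 (Math1 TRAP against DIV0). In Ezh1 cKO against wt the block gave 0.058 for Id1 and 0.034 for Id3, and the set term 0.0051 for Neurod1. With a library left out, values ran from -0.13 to 0.049 for Nhlh2 (Neurod1 against Math1), -0.035 to 0.039 for Neurod2 (P21 against P12), -0.096 to 0.0014 for Tcf4 and -0.45 to 0.090 for Id2 (TRAP against input), -0.042 to 0.34 for Id3 (DIV2 against DIV0), -0.035 to 0.093 for Nhlh2 (UNC1999 against DMSO), and -0.12 to 0.69 for Atoh1 and -0.10 to 0.034 for Neurod2 (culture minus tissue). In Ezh1 cKO against wt they ran from -0.27 to 0.064 for Neurod1, -0.26 to 0.014 for Neurod2, -0.28 to 0.056 for Nhlh2, -0.096 to 0.072 for Id1 and -0.16 to 0.15 for Id3. For Nhlh2 the difference of the UNC1999 and cKO effects ran from -0.024 to 0.30. Depth limits Atoh1, which held 4 counts at P21 and 3 at DIV5.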
